A study of Mus musculus with 31 samples.

Results

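Homeostatic microglia genes are transcripts that brain-resident macrophages keep high while they survey uninjured tissue. The set described here holds 9 of the 54532 genes counted: the receptors P2ry12, Cx3cr1, Csf1r and Trem2, the surface marker Tmem119, the complement subunits C1qa, C1qb and C1qc, and Aif1. They were taken by name, through the Ensembl gene identifiers of the count table, and not by a cut on any measured value. Earlier results of these data were known when they were chosen. Microglia reach the brain in the embryo and then renew themselves locally, under signals through the CSF1 receptor. They sense extracellular nucleotides, fractalkine and lipids, take up debris and synapses, and are the main source of C1q in the brain. In the hypothalamus they have been studied for their response to fat-rich diets.

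The RNA came from the hypothalamus of C57BL/6J mice aged 4 months, in 31 libraries: 7 labelled as daughters and 8 as sons of dams on an obesogenic diet, and 8 as daughters and 8 as sons of dams on a control diet. The obesogenic diet was rich in fat and sugar and was given to dams in pregnancy and lactation. All offspring, those of control dams too, were weaned to standard chow on postnatal day 21 and, at 3 months, were themselves put on the obesogenic diet for 4 weeks. No group without an obesogenic diet in adulthood stands in the comparison, and the labels name neither animals nor litters. The titles of 2 obesogenic libraries, 1 of each sex, carry 2 numbers, whose meaning is not stated. The p-values below therefore measure the spread between libraries, which may include littermates.

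Libraries held 23118626 to 38547288 counted read pairs. Levels are given as CPM, counts scaled by the library total and its TMM factor, and comparisons between genes as TPM, which also divides by exon length. In 5 libraries the label, the tissue or the library itself was in doubt. Control female 7 and control male 7 went against their sex label, while control female 5, control male 6 and obesogenic female 3 stood apart, with median correlations of 0.910 to 0.936 with the other libraries against 0.967 to 0.979 for the rest. Control male 6 and obesogenic female 3 had reads in 18734 and 18513 genes, where the other libraries had 21311 to 22918. Control male 6 also had the lowest TMM factor, 0.912. The cause was not tested. Summed olfactory bulb markers reached 2818 CPM among control females, in control female 5, whose summed hypothalamic neuron markers were the lowest of its group at 143 CPM. Results are given with these libraries and, where it matters, for the 26 that remain.

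All 9 genes were detected in every library, with 80 counts at the least (Aif1) and 3863 at the most (Csf1r), and all 9 passed the filter on low counts among the 18743 genes tested. Summed over the 9, their level ranged from 296 to 439 CPM in obesogenic females, 291 to 428 CPM in obesogenic males, 338 to 438 CPM in control females and 309 to 570 CPM in control males. Markers of the other macrophages a hypothalamic sample can hold, those of the meninges, vessels and blood, were low. The 10 border macrophage genes summed to 5.04 to 15.6 CPM in obesogenic females, 5.79 to 10.3 CPM in obesogenic males, 5.63 to 19.95 CPM in control females and 3.58 to 19.8 CPM in control males. Of these, Cd163 was at 0 in 1 library and Lyve1 and Pf4 in 2 each, and Clec4n and Cd209f were too low to test. In whole tissue, fewer cells and less RNA per cell cannot be told apart.

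The members differed widely in level. Per exon length the order was C1qb, at 190 ± 36.5 TPM (SD, n = 31), C1qa at 172 ± 32.3, C1qc at 79.7 ± 11.9, Csf1r at 56.5 ± 7.47, Cx3cr1 at 34.5 ± 5.28, P2ry12 at 31.2 ± 6.91, Tmem119 at 28.6 ± 3.81, Aif1 at 11.6 ± 2.66 and Trem2 at 8.83 ± 2.23 TPM. C1qb stood above C1qa in 27 of 31 libraries, C1qc above Csf1r in 30 and Aif1 above Trem2 in 29, and Csf1r stood above Cx3cr1 in every library. The order in the middle was not fixed, because Cx3cr1 exceeded P2ry12 in 20 libraries and P2ry12 exceeded Tmem119 in 21, with differences smaller than the spread over libraries. Exons of P2ry12, Cx3cr1 and Csf1r overlap exons of Med12l, Gm33858 and Hmgxb3 on the other strand, which counting by strand keeps apart. None overlaps another gene's exons on its own strand.

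The complement genes came first in level and varied together. C1qa (chr4:136895917-136898803), C1qb (chr4:136880129-136886187) and C1qc (chr4:136889804-136893065) lie side by side on the minus strand of chromosome 4 (GRCm38) and encode the 3 chains of C1q, the recognition molecule that starts the classical complement cascade. The C1qa to C1qb ratio in TPM was 0.908 ± 0.0723 (SD, n = 31), a coefficient of variation of 7.96%, while the levels themselves varied by 18.8% for C1qa, 19.2% for C1qb and 14.9% for C1qc. The C1qc to C1qb ratio was less even, 0.424 ± 0.0452 with a coefficient of variation of 10.7%, and its lowest value, 0.271, was that of control male 6. Over the 26 libraries it was 0.427 ± 0.0322.

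The upstream sequences of C1qb and C1qc are shown because these neighbours varied together, with that of Trem2, the receptor most closely correlated with them, and that of P2ry12, whose correlations with them over all libraries were weak. Each runs from 250 bases before to 50 after the gene's start in RefSeq (GRCm38.p6, minus strand except for Trem2). Capitals mark the motif GAGGAA or its reverse complement TTCCTC, the purine-rich box known for binding PU.1, the lineage factor of macrophages encoded by Spi1, and the motif AGGAAGT or its reverse complement ACTTCCT, a form of the ETS family site. The motifs share the letters AGGAA and overlap in C1qc.
C1qb, chr4:136886151-136886450: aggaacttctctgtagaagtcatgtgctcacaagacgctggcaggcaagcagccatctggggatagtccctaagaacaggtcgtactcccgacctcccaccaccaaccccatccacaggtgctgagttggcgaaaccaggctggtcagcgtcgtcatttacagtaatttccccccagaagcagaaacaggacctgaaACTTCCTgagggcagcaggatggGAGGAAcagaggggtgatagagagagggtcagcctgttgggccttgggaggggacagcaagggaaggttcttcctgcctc
C1qc, chr4:136892865-136893164: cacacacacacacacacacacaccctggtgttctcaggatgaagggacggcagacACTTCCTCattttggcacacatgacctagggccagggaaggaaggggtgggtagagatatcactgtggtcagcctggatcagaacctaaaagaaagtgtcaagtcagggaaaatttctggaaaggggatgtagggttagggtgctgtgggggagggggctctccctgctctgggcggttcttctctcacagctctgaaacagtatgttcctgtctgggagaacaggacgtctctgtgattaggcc
Trem2, chr17:48346151-48346450: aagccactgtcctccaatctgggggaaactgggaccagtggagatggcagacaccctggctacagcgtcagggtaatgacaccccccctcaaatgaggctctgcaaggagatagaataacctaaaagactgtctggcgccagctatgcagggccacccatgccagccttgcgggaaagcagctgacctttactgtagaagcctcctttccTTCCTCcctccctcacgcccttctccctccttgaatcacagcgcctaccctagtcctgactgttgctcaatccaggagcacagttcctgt
P2ry12, chr3:59262936-59263235: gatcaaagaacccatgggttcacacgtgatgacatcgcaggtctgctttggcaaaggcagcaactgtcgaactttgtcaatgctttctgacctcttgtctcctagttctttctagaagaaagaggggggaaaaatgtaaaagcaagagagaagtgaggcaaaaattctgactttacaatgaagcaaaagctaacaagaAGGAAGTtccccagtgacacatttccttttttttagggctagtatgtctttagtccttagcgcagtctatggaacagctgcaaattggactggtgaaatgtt
RefSeq entries were matched for 6 of the 9 genes, which leaves C1qa, Tmem119 and Csf1r unmatched. GAGGAA stood in 4 of the 6 (C1qb, C1qc, Trem2 and Aif1) and in 28.3% of all 32851 promoters of that length. AGGAAGT stood in 3 of the 6 (P2ry12, C1qb and C1qc) and in 9.35% of all promoters. Cx3cr1 held neither in this window. A match of letters is a description and not a site.

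No member passed the test for maternal diet. C1qb ranged from 35.8 to 71.6 CPM with a median of 60.3 in obesogenic females, and from 59.1 to 82.4 CPM with a median of 67.4 in control females. In sons it ranged from 45.4 to 71.8 CPM with a median of 63.9 in the obesogenic group, and from 49.7 to 149 CPM with a median of 64.9 in the control group. The groups overlapped in both sexes, although 6 of 7 obesogenic females and 8 of 8 obesogenic males lay below the mean of their control group. Without control male 6, 4 of 8 obesogenic males did. The log2 fold change was -0.24 ± 0.16 (SE) in females (95% interval -0.57 to 0.094, adjusted p = 0.691 by edgeR's quasi-likelihood test) and -0.33 ± 0.16 in males (-0.65 to -0.0083, adjusted p = 0.940). The mean over the sexes was -0.28 ± 0.11 (-0.51 to -0.052, adjusted p = 0.464), and -0.15 ± 0.075 (-0.30 to 0.0049, adjusted p = 0.636) over the 26 libraries.

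1 library carried much of the difference in males. Control male 6 had the highest C1qa and C1qb of all 31 libraries, at 126 and 149 CPM, where the next control male had 67.9 and 80.9 CPM. Without it the C1qb log2 fold change in males was -0.11, and without all 5 doubtful libraries it was -0.14 ± 0.10 (-0.35 to 0.070). At the other end, obesogenic female 3 had the lowest C1qa, C1qb and C1qc of all libraries, at 32.2, 35.8 and 32.4 CPM. Leaving it out gave a C1qb log2 fold change in females of -0.15.

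C1qa and C1qc gave estimates of the same sign. C1qa averaged 52.4 ± 11.7 CPM (SD, n = 7) in obesogenic females and 58.7 ± 5.55 CPM (n = 8) in control females; in sons it averaged 52.1 ± 8.88 CPM in obesogenic males and 63.1 ± 26.5 CPM in control males (n = 8 each). C1qc averaged 44.2 ± 6.17 CPM in obesogenic females and 49.8 ± 7.46 CPM in control females, and in sons 46.2 ± 7.29 CPM in the obesogenic group and 52.9 ± 11.9 CPM in the control group. The log2 fold changes were -0.16 ± 0.17 and -0.27 ± 0.16 for C1qa and -0.17 ± 0.12 and -0.19 ± 0.12 for C1qc (SE), in females and then males. Over the 26 libraries C1qa was at -0.083 ± 0.12 and -0.088 ± 0.11, and C1qc at -0.12 ± 0.12 and -0.15 ± 0.11. In the mean over sexes the C1qc log2 fold change was -0.18 ± 0.086, with an unadjusted p of 0.0402 and an adjusted p of 0.475 by edgeR's test. The groups overlapped for both genes in both sexes.

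**Figure D1:**
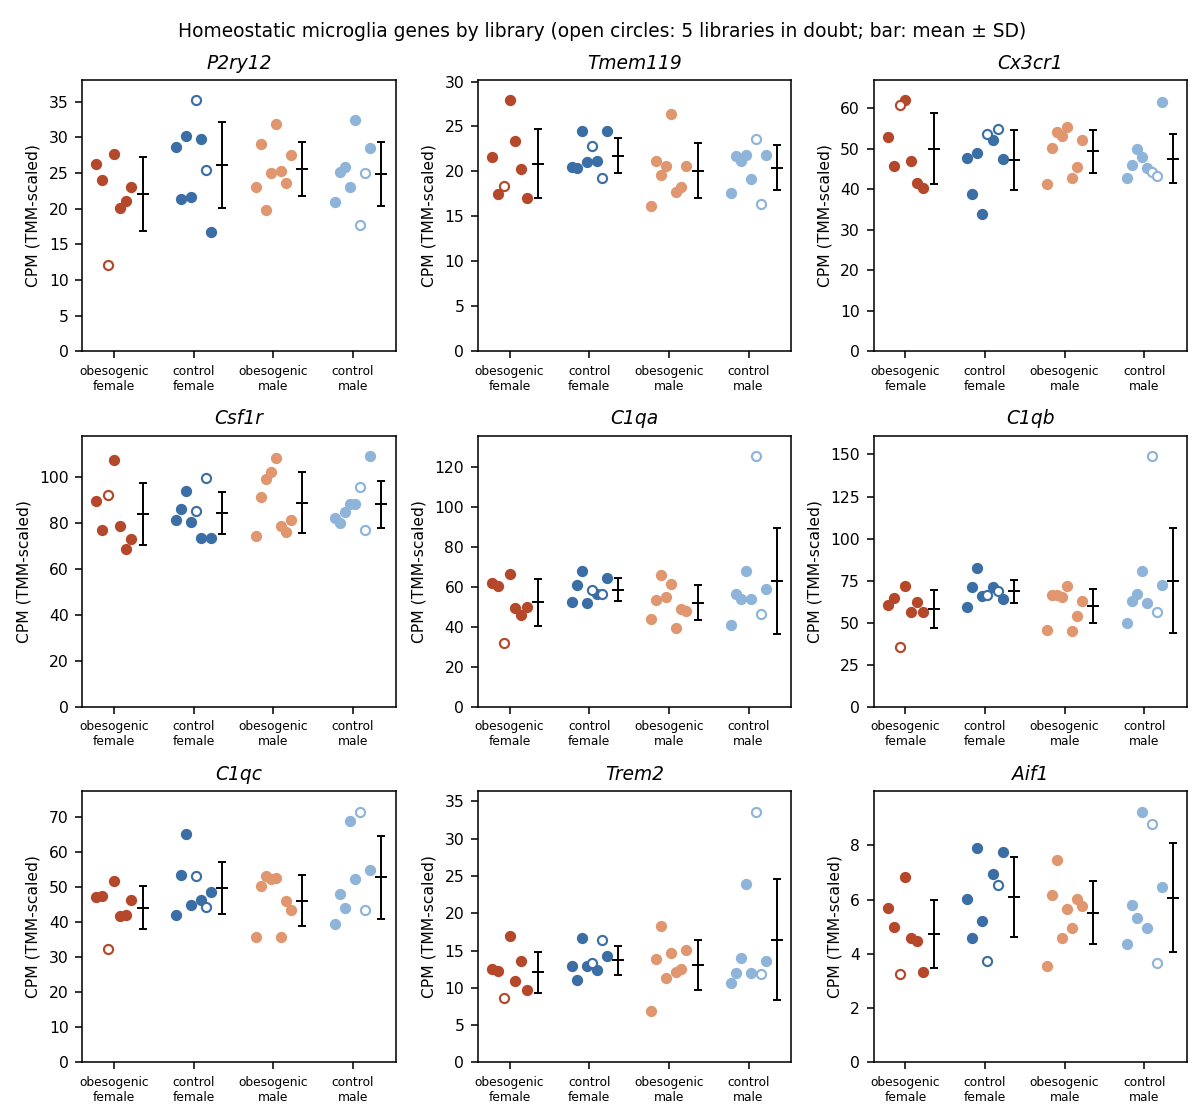
Level of each of the 9 genes in TMM-scaled CPM (vertical axes, from 0) in every library of the 4 groups, with the mean ± SD as a bar beside the points; open circles are the 5 libraries in doubt. The groups overlap in every panel, and the open circle far above the other control males in the C1qa and C1qb panels is control male 6, at 126 and 149 CPM.

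Among the receptors, Trem2 (chr17:48346401-48354147, plus strand), a lipid-sensing receptor that signals through the adaptor Tyrobp, came closest to the C1q genes. It ranged from 8.62 to 17.01 CPM with a median of 12.3 in obesogenic females, and from 11.1 to 16.6 CPM with a median of 13.1 in control females. In sons the range was 6.86 to 18.3 CPM with a median of 13.2 in the obesogenic group, and 10.6 to 33.6 CPM with a median of 12.8 in the control group. The obesogenic median thus lay above the control median in sons, while 7 of 8 obesogenic males lay below the control mean, which control male 6 raised with 33.6 CPM. The log2 fold change was -0.18 ± 0.21 in females and -0.33 ± 0.20 in males, and -0.071 ± 0.18 and -0.14 ± 0.17 without the 5 libraries (SE).

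P2ry12 (chr3:59216272-59262871, minus strand) encodes the ADP receptor that directs microglial processes to injury. It ranged from 12.03 to 27.7 CPM with a median of 23.03 in obesogenic females, against 16.7 to 35.2 CPM with a median of 26.996 in control females. In sons it ranged from 19.8 to 31.8 CPM with a median of 25.1 in the obesogenic group, against 17.6 to 32.4 CPM with a median of 25.04 in the control group. Both extremes among females were doubtful libraries, obesogenic female 3 at 12.03 CPM and control female 5 at 35.2 CPM. The log2 fold change in females was -0.24 ± 0.15 with all libraries and -0.058 ± 0.13 without the 5, and in males it was 0.045 ± 0.14 with all libraries and -0.021 ± 0.12 without the 5 (SE).

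Cx3cr1 (chr9:119901616-120069879, minus strand), the receptor for neuronal fractalkine, and Csf1r (chr18:61105572-61132149, plus strand), the receptor for CSF1 and IL-34 on which microglia depend for survival, gave estimates near 0 for maternal diet. Cx3cr1 averaged 50.02 ± 8.80 CPM in obesogenic females and 47.2 ± 7.34 CPM in control females, while sons had 49.3 ± 5.41 CPM in obesogenic males and 47.6 ± 6.07 CPM in control males (SD). Csf1r averaged 83.9 ± 13.4 CPM in obesogenic females and 84.3 ± 9.18 CPM in control females, while sons had 89.0 ± 13.1 CPM in obesogenic males and 88.3 ± 10.3 CPM in control males. The mean log2 fold change over the sexes was 0.068 ± 0.074 (95% interval -0.083 to 0.22) for Cx3cr1 and 0.0025 ± 0.068 (-0.14 to 0.14) for Csf1r. These intervals bound a change of Csf1r more tightly than one of Trem2, whose interval was -0.55 to 0.036.

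Tmem119 (chr5:113793729-113800516, minus strand), a membrane protein that marks microglia apart from other macrophages, averaged 20.9 ± 3.85 CPM in obesogenic females and 21.8 ± 1.96 CPM in control females, while sons had 20.1 ± 3.06 CPM in obesogenic males and 20.4 ± 2.48 CPM in control males (SD). Its mean log2 fold change was -0.042 ± 0.074 (SE). Aif1 (chr17:35170991-35176068, minus strand), the actin-binding protein known as Iba1, ranged from 3.25 to 6.82 CPM with a median of 4.57 in obesogenic females, against 3.76 to 7.90 CPM with a median of 6.29 in control females. In sons it ranged from 3.57 to 7.45 CPM with a median of 5.70 in the obesogenic group, against 3.68 to 9.25 CPM with a median of 5.56 in the control group. It had the most negative estimate in females, a log2 fold change of -0.36 ± 0.20 (95% interval -0.77 to 0.050, adjusted p = 0.639 by edgeR's test), which was -0.36 ± 0.19 without the 5 libraries. In males it was -0.14 ± 0.19.

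As a set, 8 of 9 members had a negative log2 fold change in females, where 52.5% of all genes tested had one, and 6 of 9 in males, against 49.9% of all genes. The median over the members was -0.17 in females and -0.14 in males, against -0.013 and 0.00038 over all genes. Without the 5 libraries the medians were -0.071 and -0.088, with 7 of 9 negative in each sex. The median in males was -0.045 without control male 6 alone. Past an adjusted p of 0.05 stood 0 members in either sex, as did 0% of all genes by edgeR. DESeq2 also called 0 members, and called 6 of all genes in females and 1 in males. At an unadjusted p under 0.05 edgeR had 0 members in females, where 8.12% of genes passed, 1 in males (C1qb), where 3.45% passed, and 2 in the mean over sexes (C1qb and C1qc), where 10.2% passed. Over the 26 libraries 0 members had such a p in any of these contrasts.

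**Figure D2:**
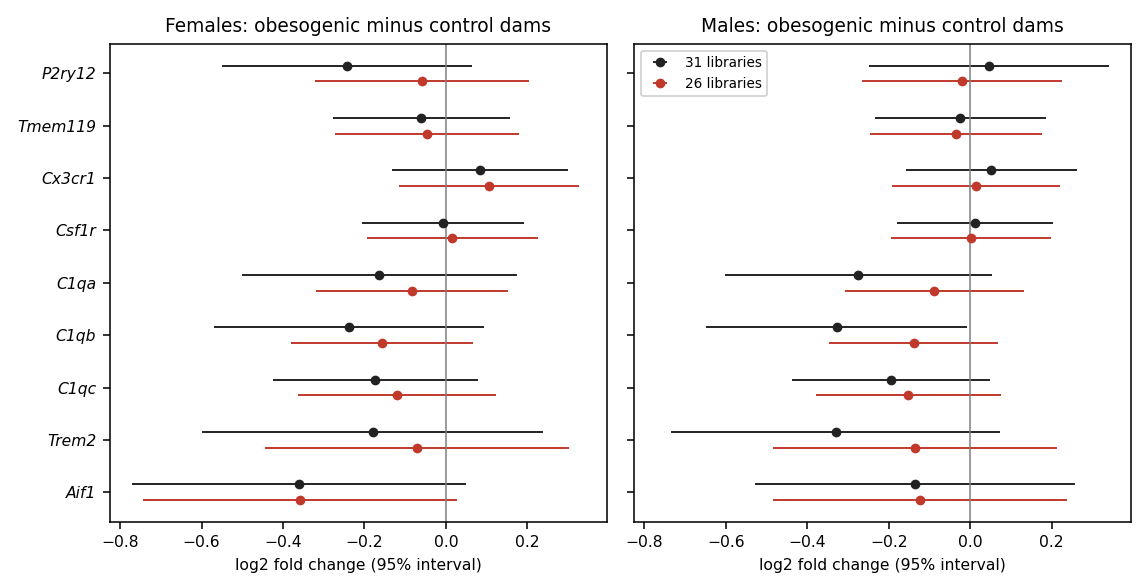
Log2 fold change of each gene, obesogenic minus control dams, with its 95% interval from edgeR (horizontal axis), in females (left) and males (right), for all 31 libraries (black) and for the 26 without those in doubt (red). The C1qb interval in males ends at -0.0083 with all libraries and includes 0 without the 5, and the Cx3cr1 and Csf1r points lie near 0 in both panels.

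The effect of maternal diet was not shown to differ between the sexes for any member. The difference of the log2 fold changes, females minus males, lay between -0.29 ± 0.21 for P2ry12 and 0.15 ± 0.29 for Trem2, with 4 of 9 members negative against 49% of all genes, and 0 members passed (edgeR, adjusted p = 0.9996 for all 9), with 0 at an unadjusted p under 0.05, where 3.62% of all genes passed. Sex itself also gave 0 calls among the members, but 0% of all genes passed in that fit, so this count says little about the members. Without the 2 libraries against their sex label, 9 genes passed in offspring of obesogenic dams and 10 in offspring of control dams, and again 0 members. Females minus males, the log2 difference lay between -0.22 ± 0.20 (Aif1) and 0.058 ± 0.11 (Tmem119) in offspring of obesogenic dams and between -0.26 ± 0.20 (Trem2) and 0.093 ± 0.10 (Tmem119) in offspring of control dams. It was negative for 6 of 9 members in each, against 51.3% and 51.1% of all genes. Unadjusted p-values under 0.05 were found for 0 members in both, against 3.63% and 4.39% of all genes.

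The members were then compared with the genes around them in the same pathways, again for maternal diet. Of 20 other homeostatic microglia genes, 16 were lower in females and 17 in males, with median log2 fold changes of -0.14 in each, and 0 passed the adjusted threshold. In the 26 libraries 13 and 12 were lower, with medians of -0.034 and -0.083. The 2 of smallest p in the mean over sexes were Ltc4s, a leukotriene synthase, at -0.35 ± 0.18, and Fcer1g, a signalling chain of Fc receptors, at -0.26 ± 0.14 (SE), and -0.20 ± 0.16 and -0.12 ± 0.11 without the 5.

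Of 7 partners and ligands of TREM2, 4 were lower in females and 6 in males, with medians of -0.10 and -0.13, and -0.023 and -0.10 over the 26 libraries. Tyrobp, the adaptor through which TREM2 signals, had a mean log2 fold change of -0.29 ± 0.13 (adjusted p = 0.473 by edgeR) and Apoe, a lipid carrier that TREM2 binds, one of -0.19 ± 0.11. Over the 26 libraries these were -0.17 ± 0.11 and -0.12 ± 0.099. Of 11 complement partners, 5 were lower in females and 6 in males. C2, a protease of the classical pathway, was at -0.44 ± 0.24 and C4b, the next component cleaved after C1, at 0.13 ± 0.090 in the mean over sexes, and at -0.25 ± 0.22 and 0.19 ± 0.096 over the 26 libraries. C4b was at 0.41 ± 0.13 in females and -0.15 ± 0.13 in males, with an adjusted p of 0.9996 for the difference between the sexes (edgeR).

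Of 8 transcription factors of microglia, 5 were lower in females and 6 in males. Spi1, which encodes PU.1, was at -0.25 ± 0.15 in the mean over sexes. Mef2c, also a neuronal gene, was at -0.64 ± 0.33, and at 0.068 ± 0.100 without the 5 libraries. In those 26 libraries 4 of the 8 were lower in females and 3 in males. Of 8 tested genes for ligands and TGF-beta signalling, 6 were lower in females and 5 in males, and 3 and 6 over the 26 libraries. Il34, a ligand of CSF1R, was at -0.12 ± 0.077 (-0.049 ± 0.067 over the 26 libraries), and Tgfb1, a cytokine that maintains the homeostatic state, at -0.25 ± 0.13.

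Genes of activated microglia had the lowest medians of the microglial lists, -0.20 in females with 11 of 14 tested genes lower, and -0.41 in males with 13 of 14 lower. Spp1, the secreted phosphoprotein osteopontin, had a mean log2 fold change of -1.08 ± 0.40 and Cd63, a tetraspanin of late endosomes, one of -0.30 ± 0.13 (edgeR, adjusted p = 0.464 for both). Over the 26 libraries the medians were -0.082 and -0.11, Spp1 was at -0.28 ± 0.25 and Cd63 at -0.16 ± 0.067. All 8 tested border macrophage genes were lower in females, with a median of -0.28, but 3 of 8 were lower without the 5 libraries, with a median of 0.055. In males the medians were -0.29 with all libraries and 0.086 without the 5. The part of these cells in the members' values was not tested.

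Across libraries the members fell into unequal company. Log2 CPM was centred on the group mean, so that mean differences between the labelled groups do not enter. A sex difference can remain through the 2 libraries against their sex label. Each of 36 pairs was correlated over the 31 libraries, which share a dissection, a sequencing depth and a mix of cells. The median Pearson r was 0.47 (median Spearman rho 0.51), and 21 pairs passed an adjusted p of 0.05 in a two-sided permutation test with 100000 resamples within groups, by either coefficient. Without the 5 libraries the median r was 0.63 and 28 pairs passed. Each member was also set against all 18742 other genes over the 31 libraries, with median r from -0.028 (C1qa) to 0.034 (P2ry12). An r over 0.5 was found with 12.7% of these genes for C1qb, 12.2% for C1qa, 11.4% for Trem2, 8.28% for Aif1 and 6.43% for C1qc. For P2ry12, Tmem119, Csf1r and Cx3cr1 the share was 5.03%, 2.24%, 2.19% and 1.33%. How many pairs of other genes would pass the permutation test was not computed. The 1% of genes with the highest r held 2 other members and 0 of 20 other homeostatic genes for C1qa, C1qb and Trem2 alike. For Tmem119 it held 5 and 2, for C1qc 3 and 6, and for P2ry12 0 and 2. For Csf1r it held 1 and 3, and for Cx3cr1 and Aif1 1 and 1 each.

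C1qa and C1qb correlated at r = 0.94 (rho = 0.85, permutation p = 1e-05, the smallest that the resamples can give, adjusted p = 7.2e-05), and at 0.87 without the 2 libraries farthest from the median. C1qc correlated with C1qa at 0.86 (rho = 0.91) and with C1qb at 0.85 (rho = 0.88), with the same p-values by permutation. Trem2 followed, at 0.83 with C1qb (rho = 0.76) and 0.81 with Aif1 (rho = 0.79). Among C1qa, C1qb, C1qc, Trem2 and Aif1, grouped after their values were seen, the 10 pairs had r from 0.64 to 0.94, and from 0.63 to 0.88 without the 5 libraries. Within single groups, C1qa and C1qb had r of 0.91 in obesogenic females (n = 7), 0.87 in obesogenic males, 0.66 in control females and 0.99 in control males (n = 8 each).

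Over all libraries Cx3cr1 and Csf1r made the other close pair, at r = 0.69 (rho = 0.68, permutation p = 4e-05, adjusted p = 0.00018). The pair was at 0.68 without the 5 libraries, but so were Csf1r with C1qa and Tmem119 with Cx3cr1. The 18 pairs neither among the 10 above nor with P2ry12 ran from 0.12 to 0.69 over all libraries. Without the 5 libraries these 18 ran from 0.41 to 0.68, which overlaps the range of the 10. Cx3cr1 was weakly related to the C1q genes over all libraries, at 0.12 to 0.20, and more closely over the 26, at 0.47 to 0.64. Tmem119 correlated with every member other than P2ry12, at 0.47 to 0.61. P2ry12 was apart from the rest: its 8 correlations ran from 0.0070 to 0.24 and 0 passed (adjusted permutation p of 0.264 or more). Without the 5 libraries they ran from 0.10 to 0.44 and 1 passed, that with Csf1r at r = 0.42 (adjusted permutation p = 0.0396).

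P2ry12 and the C1q genes also behaved unlike from group to group. In obesogenic females P2ry12 had r = 0.97 with C1qa, 0.95 with C1qb and 0.99 with C1qc (n = 7), and 0.91, 0.67 and 0.95 without obesogenic female 3, the lowest library for all 4 genes. In control males it had r = -0.54 with C1qa, -0.55 with C1qb and -0.30 with C1qc (n = 8), which turned to 0.31, 0.27 and 0.24 without control male 6. In the remaining groups the 6 values ran from -0.14 to 0.37. The difference between groups in these correlations was not tested.

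**Figure D3:**
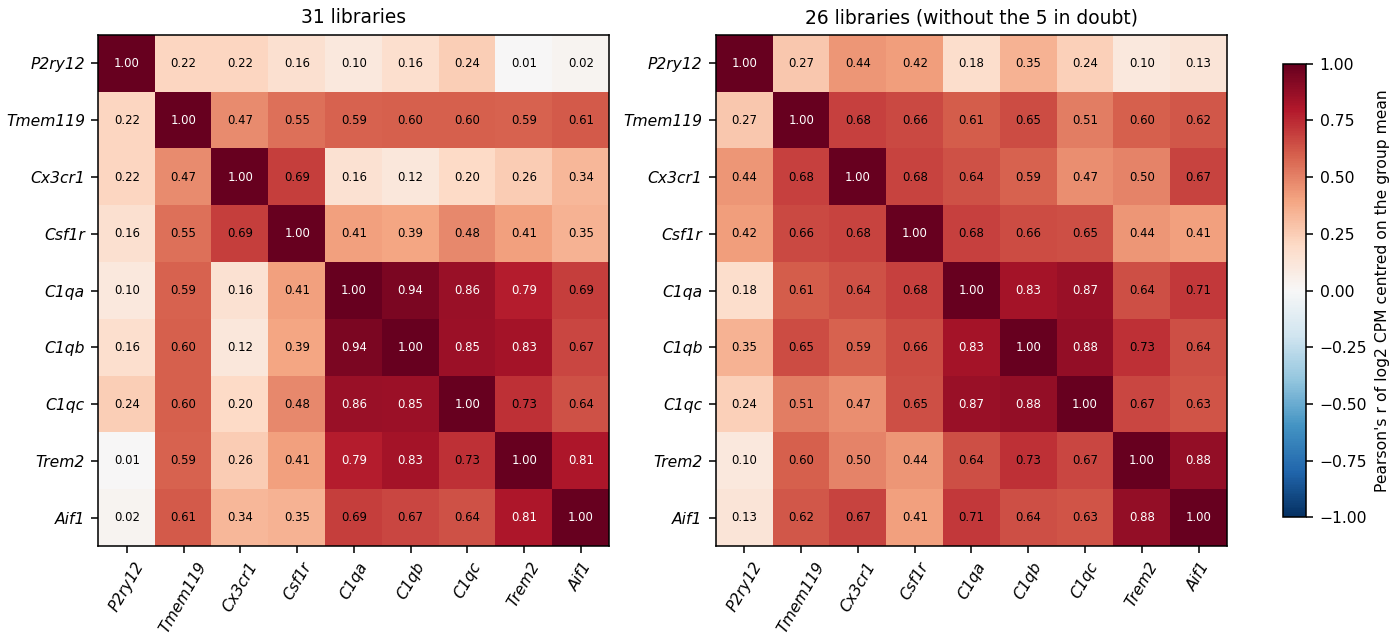
Pearson's r between the 9 genes for log2 CPM centred on the group mean, over all 31 libraries (left) and over the 26 without those in doubt (right), on a scale of -1 (blue) to 1 (red). The lower right block of C1qa, C1qb, C1qc, Trem2 and Aif1 is dark in both panels, and the top row, P2ry12, is pale in the left one and stays below 0.45 in the right one.

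The C1q, Trem2 and Aif1 block moved with the level of ribosomal protein genes, a list of 80 cytosolic ribosome genes brought in after the correlations were seen. The mean log2 CPM of that list correlated at r = 0.87 with C1qb (rho = 0.75), 0.86 with C1qa (rho = 0.69), 0.84 with Trem2 (rho = 0.80), 0.76 with Aif1 (rho = 0.78) and 0.64 with C1qc (rho = 0.59), with adjusted permutation p-values of 0.00143 or less over 63 relations. In the 26 libraries these were 0.65, 0.68, 0.81, 0.78 and 0.54. For Csf1r, Cx3cr1 and P2ry12 the r values were 0.19, 0.018 and -0.11, with adjusted permutation p-values of 0.352, 0.922 and 0.611. In the 26 libraries they were 0.32, 0.51 and -0.076, so that Cx3cr1 then came near C1qc. Tmem119, outside the block, also passed, at r = 0.48 (rho = 0.47, adjusted permutation p = 0.023), and had r = 0.525 in the 26. Control male 6 had the highest ribosomal mean, 8.64, and obesogenic female 3 the lowest, 6.61.

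The mean ribosomal level was lower in the obesogenic groups, a difference that was not tested. The mean log2 CPM was 7.18 ± 0.30 in obesogenic females and 7.42 ± 0.20 in control females, and 7.33 ± 0.19 in obesogenic males and 7.57 ± 0.46 in control males (SD). Without control male 6 the control males averaged 7.42 ± 0.17, and without all 5 libraries the means were 7.27 ± 0.18 in obesogenic females and 7.48 ± 0.15 in control females. The part of the ribosomal level in the members' values was not tested. After a linear fit of the ribosomal level was taken out of each gene, the 10 correlations within the block had a median of 0.41 where they had 0.80 before. The 3 pairs of C1q genes were then at 0.76 to 0.79, and the 7 pairs with Trem2 or Aif1 at 0.029 to 0.49. Without the 5 libraries in doubt these ranges were 0.70 to 0.82 and 0.22 to 0.68. The correlations of P2ry12 with the others had a median of 0.27 where they had 0.16.

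**Figure D4:**
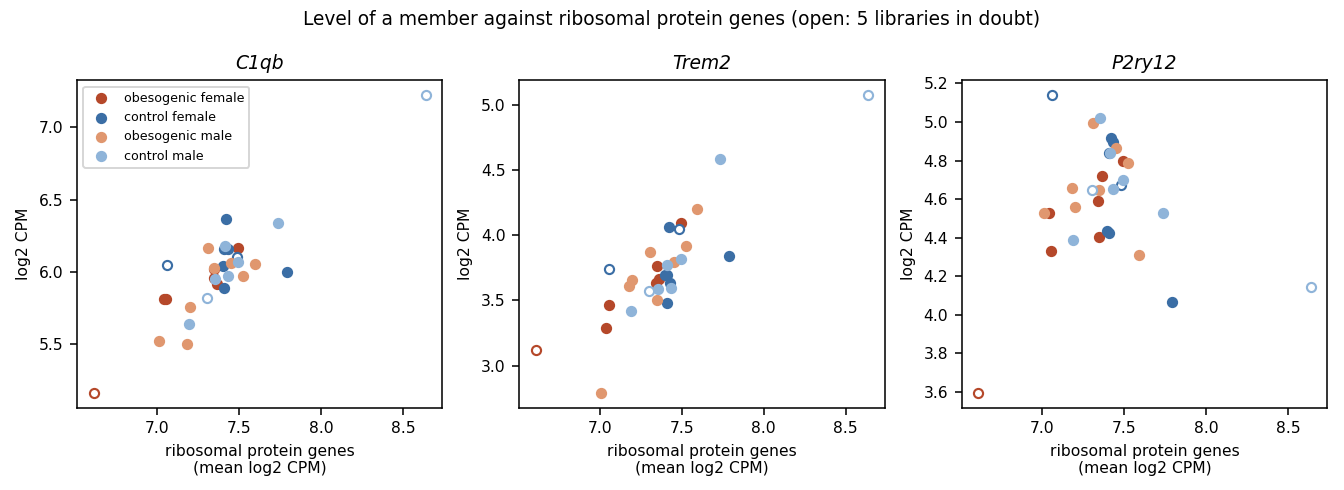
Log2 CPM of C1qb, Trem2 and P2ry12 (vertical axes) against the mean log2 CPM of 80 ribosomal protein genes (horizontal axes) in each library, coloured by group, with the 5 libraries in doubt as open circles. C1qb and Trem2 climb with the ribosomal mean up to control male 6 at 8.64, while P2ry12 shows no such slope (r = -0.11 centred on the group means).

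The members also followed other microglial genes. With the mean of the 20 other homeostatic genes, r ran from 0.44 for P2ry12 (rho = 0.53) to 0.81 for C1qc (rho = 0.79), and all 9 passed (adjusted permutation p of 0.033 or less). With the mean of 8 border macrophage genes only P2ry12 passed by Pearson's r, at 0.47 (adjusted permutation p = 0.0442, rho = 0.41 with an adjusted p of 0.0701), and it was 0.28 without the 5 libraries. Relations with non-microglial lists were of similar size for some members: Csf1r had r = 0.65 with astrocyte genes, C1qb 0.65 with oligodendrocyte genes, and Aif1 -0.55 with neuronal genes (adjusted permutation p of 0.00135, 0.00063 and 0.00408). These became 0.86, 0.58 and -0.55 in the 26 libraries. There Csf1r had r = 0.78 with oligodendrocyte genes and 0.76 with the other homeostatic genes. P2ry12 had 0.57 with astrocyte genes and 0.55 with the other homeostatic genes. The remaining members had a higher r with the homeostatic list than with astrocyte, oligodendrocyte or endothelial genes. With neuronal genes all 9 were negative, from -0.39 (Tmem119) to -0.59 (Cx3cr1). These lists share the libraries' mix of cells with the members.

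The 10 genes whose centred level was most like the mean of the 9 members' z-scores over 31 libraries were Siglech (r = 0.87), Tst (0.86), Phgdh (0.86), S100a1 (0.85), Apoe (0.84), Hadh (0.83), Vamp3 (0.83), Cenpb (0.82), S100a16 (0.82) and Cd68 (0.82), where the median gene had r = -0.018. Siglech, a lectin of microglia, and Cd68, a lysosomal protein of macrophages, stand in the list of other homeostatic genes. Phgdh, the first enzyme of serine synthesis, and Apoe are known from astrocytes. Without the 5 libraries 3 of these 10 (Siglech, Phgdh and S100a1) were again among the first 10, and 39 of the first 100 were shared. S100a1 then stood at rank 3, Phgdh at rank 7 and Siglech at rank 10. Of the first 100 among 18734 non-member genes, 4 were of the 20 other homeostatic microglia genes and 6 of the 80 ribosomal protein genes. Without the 5 libraries these counts were 3 and 2.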

How the data were processed

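Hypothalamus RNA was counted in 31 libraries. Per the file headers, the deposited values are raw counts that featureCounts 1.6.2 gave for genes of Ensembl release 94 (GRCm38), taking pairs on the reverse strand whose ends both mapped, with mapping quality 10 or more. The table also holds the authors' exon length per gene, used for TPM. FastQC, TopHat2 2.0.13, Subread and edgeR are named with build mm10, per the submitters' processing notes. The authors did not normalize the counts. With 23118626 to 38547288 pairs, 1 pair was worth 0.0259 to 0.0433 CPM, and 0 value columns were left unused. The closest pair of libraries of a group had a chi-square of 10.4 per degree of freedom over genes, above sampling noise, so none was treated as a repeat.

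Tests used edgeR 4.0.16 in R 4.3.3: filterByExpr (18743 genes), TMM scaling, robust quasi-likelihood fits with 1 mean per group over all libraries, and Benjamini-Hochberg adjustment over all genes tested, at 0.05. Log2 CPM used a prior count of 2. Correlations used group-centred log2 CPM with 100000 permutations within groups, adjusted over 36 pairs or 63 relations. The edgeR test was checked on simulated data for maternal diet in females. It recovered 40% of 100 genes changed by a log2 of 0.5 and 81% of 100 changed by 1, with 8 false calls. Each gene started from 1 mean over all libraries, so the deviating profiles of the libraries in doubt were not modelled. These shares may therefore not hold for the fit of the 31 libraries. Smaller changes were not simulated. Alternatives were DESeq2 1.42.0, other scalings, no filter, fits on only the 2 groups compared, and leaving out libraries. Names other than the members were given by rule: the 2 of smallest p in the mean diet contrast of each list, and the 10 genes most like the members; C4b's values by sex, genes at single libraries and the grouping of C1q, Trem2 and Aif1 were picked after their values were seen. The members and gene lists were chosen with earlier results of these data known.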

Additional observations from a re-analysis of the deposited data

Results flagged for a closer look

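Of 36 sets of values (9 genes in 4 groups) checked for a library far from the rest of its group, 3 were marked, where chance marks about 1 in 20. All 3 lay in control males. Control male 6 had 126 CPM of C1qa, with the nearest library at 67.9 CPM, and 149 CPM of C1qb, with the nearest at 80.9 CPM. It is 1 of the libraries that stood apart over all genes. Control male 8 had 61.4 CPM of Cx3cr1, with the nearest control male at 49.8 CPM, and was not in doubt otherwise.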

How the results depend on the processing

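No member passed in any contrast under any of the alternatives run, and the 36 correlations had a median r of 0.44 to 0.63 with 19 to 30 pairs passing under other scalings, coefficients and sets of libraries. The median r was 0.43 without the 2 libraries farthest from the median and 0.42 after the ribosomal level was taken out. Of the single-gene values, 516 kept their sign and side of the threshold and 33 changed sign, all of them small log2 differences; the cause was not tested. Settings on single libraries (control male 6, obesogenic female 3, control female 5) and the ribosomal list were chosen after seeing the data. Without the 2 libraries against their sex label, Csf1r was at 0.031 in females, -0.014 in males and 0.045 for the interaction, and Aif1 at -0.091 for females minus males of control dams. Without the 3 libraries that stood apart, diet in males was -0.020 for P2ry12 and 0.0015 for Tmem119, and the interaction -0.0033 for C1qa, -0.031 for C1qb and -0.0046 for Trem2. Females minus males was then -0.021 for Cx3cr1, 0.061 for C1qb and 0.0086 for C1qc of obesogenic dams, and -0.065 for P2ry12, 0.11 for C1qa and 0.092 for C1qb of control dams. Without all 5, diet was 0.016 for Csf1r in females and -0.021 for P2ry12 in males, and the interaction 0.014 for Csf1r and -0.018 for C1qb. Females minus males was then -0.032 for Cx3cr1 and 0.051 for C1qb of obesogenic dams, and -0.073 for P2ry12, 0.093 for C1qa and 0.068 for C1qb of control dams. Without the 2 libraries with 2 numbers in their titles, Tmem119 was at 0.015 in males, the interaction at -0.016 for Cx3cr1 and -0.041 for C1qc, and females minus males of obesogenic dams at -0.027 for Cx3cr1 and -0.068 for C1qa. Leaving out control male 6, obesogenic female 3 or control female 5 alone, diet in males ran from -0.016 to 0.042 for P2ry12 and from -0.028 to 0.0042 for Tmem119, and the mean diet value of Csf1r ran from -0.011 to 0.011. With only the groups compared, Aif1 was at -0.0015 for females minus males of control dams. The median of the members in males ran from -0.045 (without control male 6) to -0.22 (without the 2 against their sex label), and that in females from -0.064 (without the 3 that stood apart) to -0.19 (without the 2 with 2 numbers in their titles). No paired analysis was possible because the labels name neither animals nor litters. The labels give no replicate numbers either, and those used here, as in control male 6, follow the order of samples within each group. Depth did not limit detection of the 9 genes, but Aif1 had as few as 80 counts in a library.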

Other observations

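Lists of other cell types that the report does not describe gave 0 calls for maternal diet. Endothelial genes had positive medians, 0.13 in females and 0.22 in males with 6 of 8 genes higher in each, and 0.20 and 0.19 without the 5 libraries in doubt. Flt1, a VEGF receptor, had a mean log2 fold change over the sexes of 0.27 ± 0.079 and Abcb1a, an efflux transporter of the blood-brain barrier, one of 0.35 ± 0.12 (SE, edgeR, adjusted p = 0.464 for both). Fibroblast genes were lower for 7 of 7 in females and 7 of 7 in males, with medians of -0.34 and -0.19, and for 7 and 5 without the 5 libraries. Lgals3, the galectin of activated macrophages, singled out after its values were seen, had log2 fold changes of 0.51 ± 0.29 in females and -0.99 ± 0.28 in males, a difference of 1.51 ± 0.40 with an unadjusted p of 0.000696 and an adjusted p of 0.9996 (edgeR). Its mean level was 2.05 CPM.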
